A study of Mus musculus with 8 samples.

Results

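Complement genes were read from RNA sequencing of the right ventricle of female mice aged 8 weeks. The 9 genes are all rows of the deposited count table, out of 30495, whose symbol is C1qa, C1qb, C1qc, C1s1, C4b, C3, Cfd, C3ar1 or Serping1, and all 9 had enough counts to be tested among 19083 genes. The 8 libraries form 4 groups of 2. Fpr2-KO SuHx mice lacked Fpr2, the gene of formyl peptide receptor 2, and were given the VEGF receptor blocker Sugen at 20 mg/kg beside 3 weeks of hypoxia. Fpr2-KO control mice lacked Fpr2 and breathed normal oxygen for 21 days. WT SuHx mice carried Fpr2 and had the same Sugen and hypoxia, and WT control mice carried Fpr2 and breathed normal oxygen for 21 days. All groups were female. The labels name no strain, no Fpr2 allele and no vehicle, and do not say that the libraries of a group came from separate animals. The series asks what formyl peptide receptor 2 has to do with sex differences in right ventricular dysfunction in pulmonary hypertension, and Sugen with hypoxia is a usual rodent model of that disease.

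Complement is a cascade of plasma and tissue proteins that tags microbes, dead cells and debris for removal. In the classical pathway, C1q, built of chains from C1qa, C1qb and C1qc, binds a target and turns on the proteases C1r and C1s, which cut C4 and C2 into an enzyme that cuts C3. The alternative pathway amplifies C3 cleavage through factor B and factor D (Cfd), the C3a fragment signals through the receptor C3ar1, and C1 inhibitor (Serping1) blocks C1r and C1s. In most tissues macrophages are the main source of C1q, whereas the liver makes most plasma C3 and C4 and fat cells make factor D.

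Total counts were 67965311 to 76292772 per library, and genes of the mitochondrial genome took 24.2% to 28.2% of them. Fpr2 had 0 counts in each of the 4 Fpr2-KO libraries. It had 12 counts in both WT SuHx libraries, and WT control had 19 and 23. Libraries carry the number in their column name, which runs 2 and 3 in both Fpr2-KO groups, 1 and 3 in WT SuHx and 1 and 2 in WT control. The summed level of 8 ventricular muscle markers was 33635 to 48037 CPM (counts scaled to a common library size) in every library, so each carries heart muscle genes. That sum was 38300 CPM in Fpr2-KO SuHx library 2, the library with the most atrial RNA, so it does not set the chambers apart. Fpr2-KO SuHx library 2 stood apart. Its 5 atrial markers summed to 2565 CPM, against 25.4 to 311 CPM in the other 7 libraries, and its 6 mesothelium markers summed to 24.7 CPM, next to 24.5 CPM in WT control library 1 and 7.93 to 18.2 CPM in the other 6. Results are given with and without these 2 libraries where that changes them. In bulk tissue, fewer cells of a type and less RNA per cell cannot be told apart.

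The 3 C1q genes rose together in SuHx hearts and were the only 3 of the 9 genes that passed the test when both genotypes were averaged. C1qa was 1.83-fold, C1qb 1.69-fold and C1qc 1.74-fold higher in SuHx than in control libraries. C1s1, C4b, C3, Cfd, C3ar1 and Serping1 did not pass in that comparison, where 15.5% of all tested genes were called higher and 14.1% lower. No difference between Fpr2-KO and WT passed for any of the 9 genes, in control mice, in SuHx mice or in the response to SuHx. Of all tested genes, 2.6%, 0% and 0% passed in these comparisons.

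C1qa (ENSMUSG00000036887), C1qb (ENSMUSG00000036905) and C1qc (ENSMUSG00000036896) encode the A, B and C chains of C1q. They lie side by side on the minus strand of mm10 chromosome 4, C1qb at 136880129 to 136886187, C1qc at 136889804 to 136893065 and C1qa at 136895917 to 136898803. The span of 18675 bases holds no other annotated gene in GENCODE M21, and each of the 3 genes has 3 exons there. Of the 9 genes, 6 matched the RefSeq promoter table (GRCm38.p6), C1qb and C1qc among them. Both promoters are shown because the C1q genes moved together, each from 250 bases before to 50 bases after the RefSeq start, on the minus strand, at chr4:136886151-136886450 for C1qb and chr4:136892865-136893164 for C1qc. The RefSeq start of C1qc lies 151 bases inside the deposited gene.
C1qb promoter: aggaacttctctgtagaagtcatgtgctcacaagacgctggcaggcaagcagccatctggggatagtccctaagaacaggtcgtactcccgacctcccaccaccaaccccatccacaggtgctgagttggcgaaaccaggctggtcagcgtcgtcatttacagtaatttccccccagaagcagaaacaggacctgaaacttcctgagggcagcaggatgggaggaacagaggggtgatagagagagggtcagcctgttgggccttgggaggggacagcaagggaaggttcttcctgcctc
C1qc promoter: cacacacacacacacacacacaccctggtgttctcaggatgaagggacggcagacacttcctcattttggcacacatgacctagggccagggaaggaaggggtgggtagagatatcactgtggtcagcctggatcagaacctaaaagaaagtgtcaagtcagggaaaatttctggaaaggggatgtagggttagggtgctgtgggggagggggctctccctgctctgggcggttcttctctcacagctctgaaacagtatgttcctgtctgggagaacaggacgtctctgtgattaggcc
Neither window holds, on either strand, the interferon-stimulated response element, the STAT site TTCNNNGAA, the PU.1 core AGAGGAAG or the C/EBP site TTGCNNAA, which occur in 3.443%, 8.298%, 4.551% and 10.797% of 32851 promoters of the same length. No match says only that these letters are not in this window.

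C1qa stood at 41.6 and 46.6 CPM in the Fpr2-KO SuHx libraries and 34.5 and 46.2 CPM in the WT SuHx libraries, against 28.6 and 19.6 CPM in the Fpr2-KO control libraries and 18.9 and 25.4 CPM in the WT control libraries. The 4 SuHx libraries all lay above the 4 control libraries, without overlap. C1qb, the chain with the highest level of the 3 per length, stood at 47.1 and 51.7 CPM in the Fpr2-KO SuHx libraries and 44.5 and 55.3 CPM in the WT SuHx libraries, against 35.9 and 25.4 CPM in the Fpr2-KO control libraries and 22.9 and 33.7 CPM in the WT control libraries. C1qc stood at 40.9 and 40.4 CPM in the Fpr2-KO SuHx libraries and 34.96 and 47.6 CPM in the WT SuHx libraries, against 28.6 and 20.6 CPM in the Fpr2-KO control libraries and 18.05 and 27.1 CPM in the WT control libraries. For both genes too the SuHx libraries lay above all control libraries. Of all 19083 tested genes, 15.6% were higher in SuHx without overlap in that way. Averaged over genotypes, the log2 fold change was 0.87 ± 0.16, adjusted p = 0.00498 for C1qa in edgeR's quasi-likelihood test with Benjamini-Hochberg adjustment over the 19083 genes. It was 0.75 ± 0.16, adjusted p = 0.00882 for C1qb and 0.80 ± 0.17, adjusted p = 0.00927 for C1qc (± is the standard error, n = 4 libraries each). These were 3 of 9 genes called higher at an adjusted p under 0.05, where 15.5% of all genes were called higher, and 0 of 9 called lower, where 14.1% were. The median log2 fold change was 0.03 over the 9 genes and 0.01 over all tested genes.

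**Figure D1:**
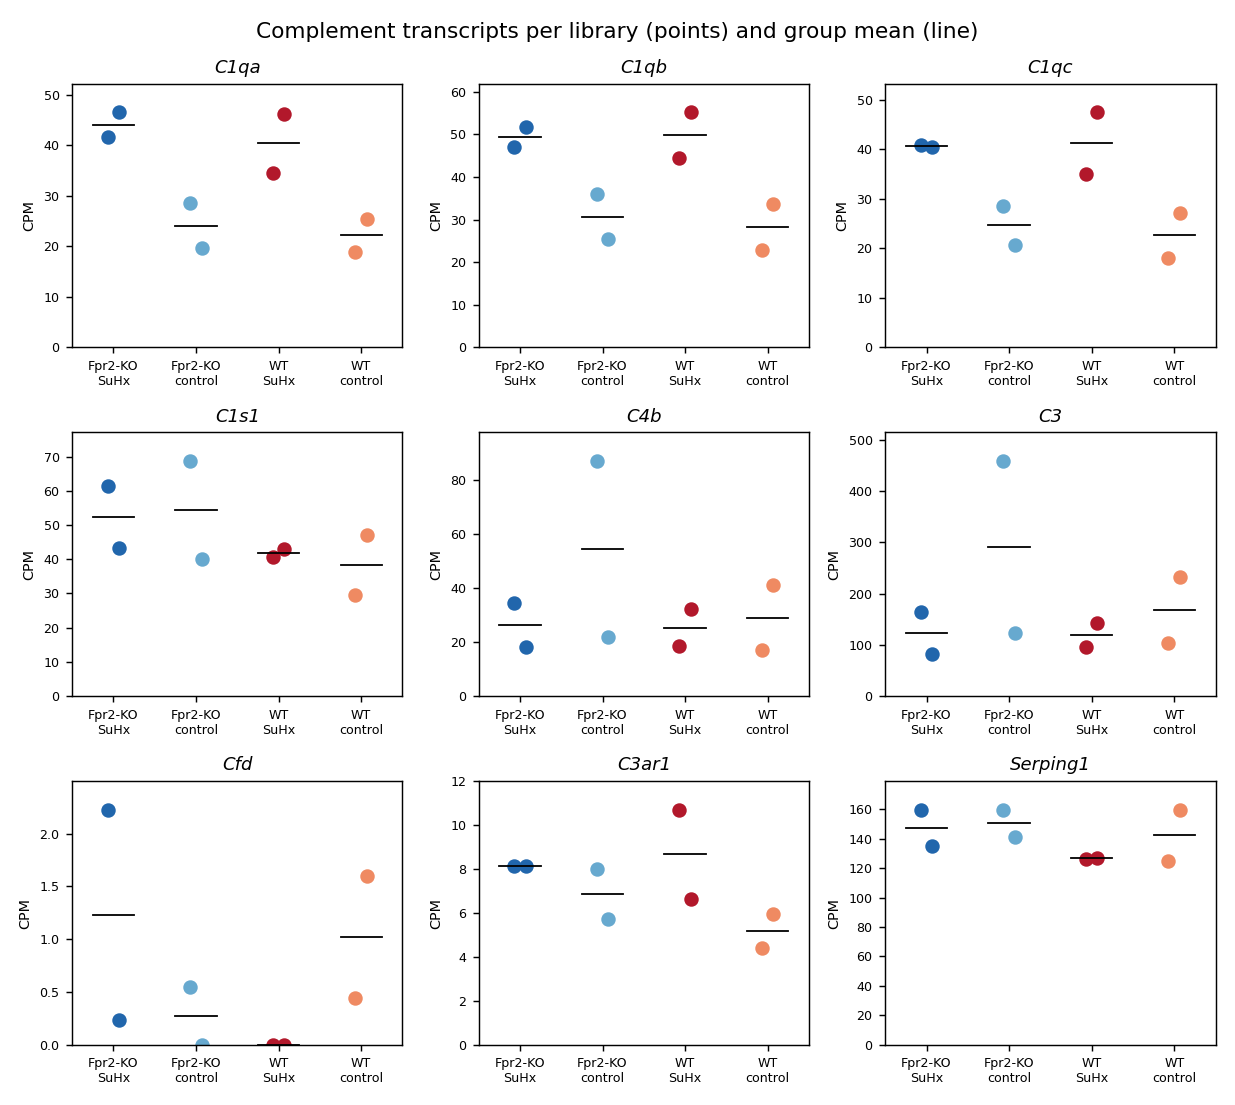
CPM on linear axes that start at 0 for the 9 complement genes, 1 panel per gene, with each library as a point and the group mean as a line, for Fpr2-KO SuHx, Fpr2-KO control, WT SuHx and WT control. The SuHx points lie above the control points of the same genotype for C1qa, C1qb and C1qc, while C3 and C4b spread widely within groups.

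Within Fpr2-KO mice, C1qa averaged 44.1 ± 3.56 CPM in SuHx and 24.1 ± 6.39 CPM in control (SD, n = 2 each). Its log2 fold change was 0.87 ± 0.22, adjusted p = 0.0441 (edgeR). C1qb and C1qc had log2 fold changes of 0.69 ± 0.22, adjusted p = 0.0863 and 0.72 ± 0.24, adjusted p = 0.0903, so 1 of the 9 genes was called higher in Fpr2-KO, where 4.93% of all genes were, and 0 lower, where 5.75% were. Within WT mice, C1qa averaged 40.4 ± 8.24 CPM in SuHx and 22.1 ± 4.57 CPM in control. C1qa had a log2 fold change of 0.87 ± 0.22, adjusted p = 0.0284, C1qb of 0.82 ± 0.22, adjusted p = 0.0336 and C1qc of 0.87 ± 0.24, adjusted p = 0.0348. All 3 were called higher in WT, where 10.9% of all genes were called higher and 9.63% lower. The median log2 fold change of the 9 genes was 0.25 in Fpr2-KO and 0.13 in WT, against 0.02 and 0.0043 over all tested genes. A call in 1 genotype and not in the other does not show that the genotypes differ, and the difference itself did not pass. The SuHx change in Fpr2-KO minus that in WT was 0.01 (95% interval -0.71 to 0.73) for C1qa in log2 units, -0.13 (95% interval -0.85 to 0.58) for C1qb and -0.15 (95% interval -0.91 to 0.62) for C1qc.

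The calls within a genotype rested on few libraries and, in Fpr2-KO, on the method. In WT, C1qa, C1qb and C1qc were no longer called without WT SuHx library 3 (adjusted p = 0.169, 0.184 and 0.199, edgeR) or without WT control library 1 (adjusted p = 0.126, 0.125 and 0.127). C1qb and C1qc were also lost in WT without WT SuHx library 1 (adjusted p = 0.0715 and 0.0525), Fpr2-KO SuHx library 2 (0.0543 and 0.0597) or Fpr2-KO SuHx library 3 (0.0565 and 0.0607). In Fpr2-KO, C1qa was lost without Fpr2-KO SuHx library 2 or 3 (adjusted p = 0.147 and 0.168), Fpr2-KO control library 3 (0.220) or WT SuHx library 1 or 3 (0.0575 and 0.0567). C1qb and C1qc were called in Fpr2-KO without WT control library 1 or library 2. With all 8 libraries, DESeq2 called both there (adjusted p = 0.0212 and 0.0214). A replicate block on column number in edgeR called C1qc there (adjusted p = 0.0373). Leaving out both Fpr2-KO SuHx library 2 and WT control library 1, none of the 9 genes was called within a genotype, and the 3 C1q genes were called in the average (adjusted p at most 0.0353 over all alternatives). Each of the 3 genes was higher in SuHx in every one of these fits.

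**Figure D2:**
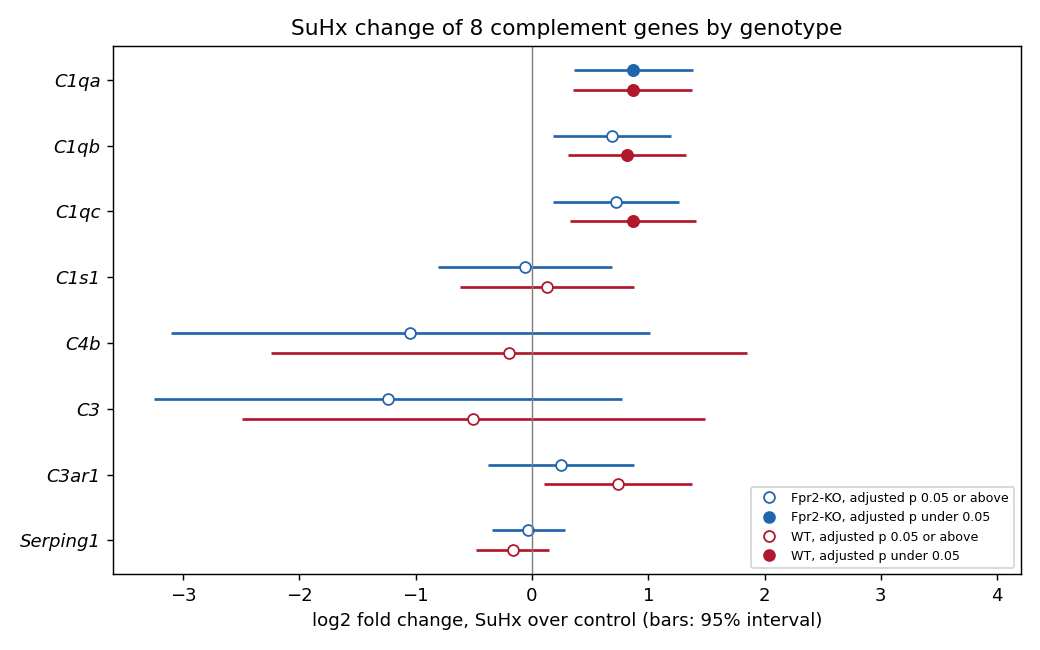
Log2 fold change of SuHx over control for 8 of the 9 complement genes, in Fpr2-KO above WT for each gene, with bars for the 95% interval and filled points for an adjusted p under 0.05 in edgeR. The C1q genes lie to the right of 0 in both genotypes, and the bars of C3 and C4b are the widest. Cfd is not drawn because both WT SuHx libraries hold 0 counts of it.

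The levels of the 3 C1q chains followed each other closely over the libraries, while their ratios varied somewhat. Pearson's r of log2 CPM over the 8 libraries was 0.988 between C1qa and C1qb, 0.984 between C1qa and C1qc and 0.994 between C1qb and C1qc, as a description of libraries that share groups and depth. Per length, in CPM per kilobase of exon, the level of C1qb was 1.06 to 1.08 times that of C1qa in the Fpr2-KO SuHx libraries, 1.20 to 1.24 times in Fpr2-KO control, 1.15 to 1.23 times in WT SuHx and 1.16 to 1.27 times in WT control. The C1qb to C1qa ratio was thus lowest in the 2 Fpr2-KO SuHx libraries. The level of C1qc was 0.467 to 0.575 times that of C1qa over the 8 libraries.

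Many macrophage markers moved with C1q. The summed level of 16 macrophage markers was 479 and 496 CPM in the Fpr2-KO SuHx libraries and 412 and 526 CPM in the WT SuHx libraries, against 406 and 296 CPM in the Fpr2-KO control libraries and 268 and 333 CPM in the WT control libraries. The SuHx libraries lay above all control libraries, by as little as 412 against 406 CPM. Of all tested genes taken singly, 15.6% did so. Of the 16 markers, 9 were called higher and 0 lower averaged over genotypes, where 15.5% and 14.1% of all genes were. In Fpr2-KO 3 were called higher and in WT 8, where 4.93% and 10.9% of all genes were. Cd163, Mertk, Cd14 and Lyve1 had negative log2 fold changes in the average and did not pass. Cd163, a scavenger receptor of resident macrophages, stood at 18.7 and 22.04 CPM in the Fpr2-KO SuHx libraries and 16.02 and 26.9 CPM in the WT SuHx libraries, against 23.3 and 14.96 CPM in the Fpr2-KO control libraries and 33.2 and 37.1 CPM in the WT control libraries. The level of all 3 C1q genes together was 0.270 and 0.279 of the marker sum in the Fpr2-KO SuHx libraries and 0.276 and 0.283 in the WT SuHx libraries, against 0.229 and 0.221 in the Fpr2-KO control libraries and 0.223 and 0.259 in the WT control libraries. Relative to Csf1r, the receptor that keeps macrophages alive, C1q stood at 2.28 to 2.57 in the 4 SuHx libraries and at 1.59 to 1.83 in the 4 control libraries. Relative to Adgre1, which encodes the macrophage surface protein F4/80, C1q stood lower in SuHx, at 5.35 to 7.40 against 7.52 to 15.1 in control. Relative to Cd68, a lysosomal protein of macrophages, SuHx and control overlapped, at 7.81 to 11.7 and 8.52 to 10.9. The order of SuHx and control therefore depended on which macrophage gene was the denominator. The part of macrophage number in the C1q rise was not tested.

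**Figure D3:**
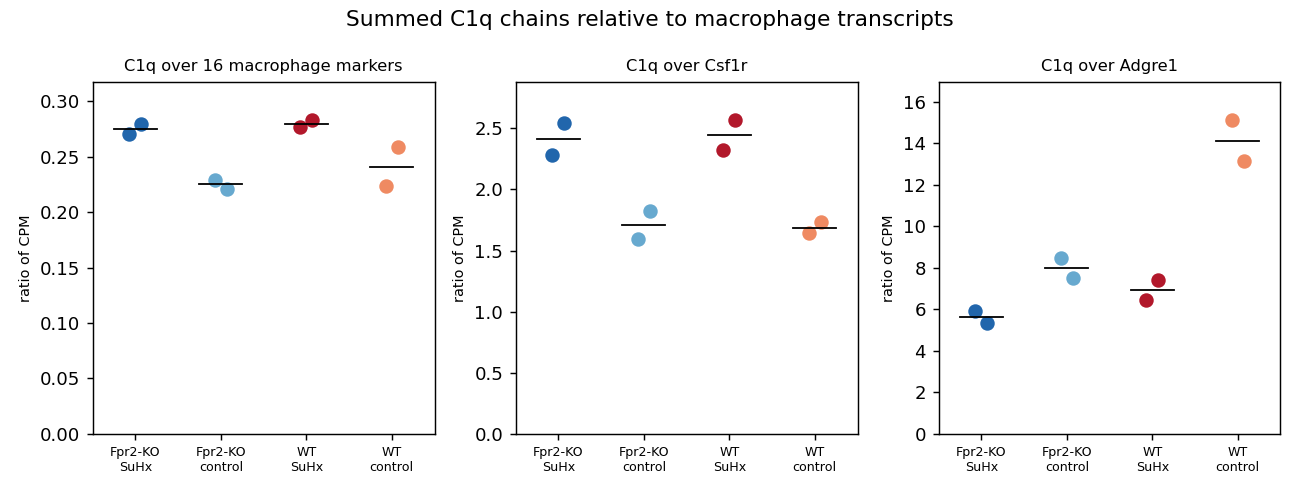
Summed CPM of C1qa, C1qb and C1qc in each library divided by the summed CPM of 16 macrophage markers, by Csf1r and by Adgre1, 1 panel each, with points for libraries and lines for group means of Fpr2-KO SuHx, Fpr2-KO control, WT SuHx and WT control. The SuHx points lie above the control points for the marker sum and for Csf1r, and below them for Adgre1.

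C1s1 (ENSMUSG00000038521, mm10 chromosome 6, 124530345 to 124542359, minus strand) encodes C1s, the protease of C1 that cuts C4 and C2. It stood at 61.3 and 43.4 CPM in the Fpr2-KO SuHx libraries and 40.8 and 43.1 CPM in the WT SuHx libraries, against 68.9 and 40.05 CPM in the Fpr2-KO control libraries and 29.5 and 47.2 CPM in the WT control libraries. The groups overlapped in both genotypes. Its log2 fold change for SuHx was -0.06 (95% interval -0.80 to 0.69) in Fpr2-KO and 0.13 (95% interval -0.62 to 0.88) in WT. In SuHx mice both Fpr2-KO libraries lay above both WT libraries, by as little as 43.37 against 43.07 CPM, and 17.3% of all tested genes did so. The log2 fold change was 0.32 ± 0.32, adjusted p = 1.0 (edgeR). With the replicate block it was -0.047. C1s2, a near copy on the same chromosome, had at most 0.88 CPM, and reads that fit both copies are uncertain.

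C4b (ENSMUSG00000073418, mm10 chromosome 17, 34728380 to 34743882, minus strand) encodes C4, the substrate of C1s. It stood at 34.5 and 18.2 CPM in the Fpr2-KO SuHx libraries and 18.6 and 32.04 CPM in the WT SuHx libraries, against 87.1 and 21.8 CPM in the Fpr2-KO control libraries and 16.95 and 41.1 CPM in the WT control libraries. Fpr2-KO control library 2 was the highest of the 8 libraries. C3 (ENSMUSG00000024164, mm10 chromosome 17, 57203970 to 57228136, minus strand) encodes the protein on which all complement pathways converge. It stood at 165 and 82.2 CPM in the Fpr2-KO SuHx libraries and 95.4 and 142 CPM in the WT SuHx libraries, against 459 and 123 CPM in the Fpr2-KO control libraries and 104 and 232 CPM in the WT control libraries. The same library was again the highest, at 3.73 times its partner for C3 and 4.0 times for C4b, while the median ratio between the 2 Fpr2-KO control libraries over all tested genes was 1.18.

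Neither gene passed in any comparison. The log2 fold change of C3 for SuHx was -1.24 (95% interval -3.25 to 0.77) in Fpr2-KO and -0.50 (95% interval -2.49 to 1.48) in WT, and that of C4b was -1.05 (95% interval -3.11 to 1.02) in Fpr2-KO and -0.20 (95% interval -2.25 to 1.85) in WT. All 4 intervals include falls larger in size than the C1q rises. All but that of C3 in Fpr2-KO include rises larger than each C1q rise. The C3 interval in Fpr2-KO ends above the rises of C1qb (0.69) and C1qc (0.72) there and below that of C1qa (0.87). Without Fpr2-KO control library 2, the C3 change in Fpr2-KO was 0.0052 and the C4b change 0.28, both against a lone control library. C3 and C4b moved together, with a Pearson's r of log2 CPM of 0.978 over the 8 libraries. C4b was 0.210 and 0.222 of C3 in CPM in the Fpr2-KO SuHx libraries and 0.195 and 0.226 in the WT SuHx libraries, against 0.190 and 0.177 in the Fpr2-KO control libraries and 0.163 and 0.177 in the WT control libraries. The SuHx ratios lay above all control ratios, by as little as 0.195 against 0.190, which was not tested.

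**Figure D4:**
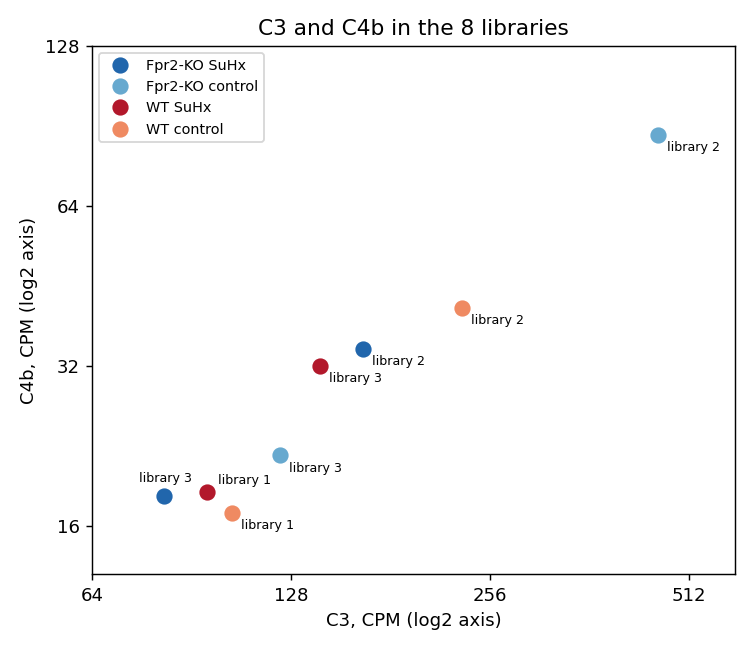
CPM of C4b against CPM of C3 in the 8 libraries, both on log2 axes, coloured by group and labelled by library number. C3 and C4b rise together over the points, with slightly more C4b for a given C3 in the SuHx points. Fpr2-KO control library 2 lies at the upper end at 459 CPM of C3 and 87.1 CPM of C4b.

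Markers of other cell types were summed in the Fpr2-KO control libraries, since C3 and C4 have several sources. In library 2 the 7 hepatocyte markers summed to 7.01 CPM, against 5.87 CPM in library 3, and the 6 mesothelium markers to 12.6 CPM against 18.2 CPM. The 11 fibroblast markers summed to 1332 CPM against 1291 CPM, and the 16 macrophage markers to 406 CPM against 296 CPM. Neutrophil markers, 8 in all, summed to 1.44 CPM in library 2 and 11.9 CPM in library 3. C4a, a near copy of C4b, stood at 2.83 and 0.3901 CPM in Fpr2-KO control libraries 2 and 3, so it too was higher in library 2, and reads that fit both C4 genes are uncertain. The part of these cell types in the C3 and C4b levels was not tested.

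The promoter of C3 is shown because it holds 1 of the 2 motif matches among the matched genes (RefSeq, GRCm38.p6, chr17:57228087-57228386, minus strand, 250 bases before to 50 bases after the start). The capitals mark TTGCGAAA, a match to the C/EBP site TTGCNNAA whose first base lies at -45 from the start and which overlaps no other searched motif. C/EBP factors drive acute-phase genes in liver.
C3 promoter: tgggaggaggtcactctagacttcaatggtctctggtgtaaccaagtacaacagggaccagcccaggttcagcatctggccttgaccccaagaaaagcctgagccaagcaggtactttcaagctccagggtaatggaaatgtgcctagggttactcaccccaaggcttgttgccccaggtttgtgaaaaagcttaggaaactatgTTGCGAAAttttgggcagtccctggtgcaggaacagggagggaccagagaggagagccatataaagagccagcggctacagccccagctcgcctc
The other match, TTAGGCAA on the opposite strand, lies at -242 in 1 of the 2 C1s1 promoters of the table. Matches in 10.797% of all promoters make this a description of letters, not a site shown to be used.

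Cfd (ENSMUSG00000061780, mm10 chromosome 10, 79890853 to 79892655, plus strand) encodes factor D, also called adipsin, the protease that starts the alternative pathway by cutting factor B. It had 164 and 17 counts in the Fpr2-KO SuHx libraries and 0 and 0 counts in the WT SuHx libraries, against 38 and 0 counts in the Fpr2-KO control libraries and 29 and 113 counts in the WT control libraries. The 2 WT SuHx libraries had none, and every other group had at least 1 library with 29 counts or more. Both WT SuHx libraries together were given a floor of 3 counts. The pooled Cfd level in WT SuHx was then at least 50.6-fold lower than in WT control, where 142 counts were seen. Such a floor covers counting error only, not the spread between libraries. The fitted 95% interval of the log2 fold change in WT, before adjustment over genes, was -17.25 to -1.10. With 0 counts in both WT SuHx libraries the size of the fitted change is not fixed. The ends of this interval are therefore not limits of the effect. By the same floor, the pooled Cfd level was at least 59.4-fold higher in Fpr2-KO SuHx than in WT SuHx, from 181 counts. Of these counts, 164 came from the library with atrial genes. From the 17 counts of Fpr2-KO SuHx library 3 alone, the floor was 11.1-fold higher than in WT SuHx. The fitted 95% interval between genotypes in SuHx mice was 1.41 to 17.47 in log2 units, and its ends are not limits either. The WT comparison did not pass in edgeR (adjusted p = 0.108), and over the alternatives its adjusted p ran from 0.0209 with DESeq2 to 0.301. It passed with DESeq2, with the replicate block (0.0490) and without Fpr2-KO control library 2 (0.0487). The difference between genotypes in SuHx mice did not pass (adjusted p = 1.0), nor did the interaction (adjusted p = 0.328).

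Adipocyte markers were near 0 in all libraries apart from Cidea. Adipoq, the adiponectin gene, was at 0.543 and 0 CPM in the Fpr2-KO SuHx libraries and 0 CPM in both WT SuHx libraries, against 0 CPM in both Fpr2-KO control libraries and 0.308 and 0.579 CPM in the WT control libraries. The 3 libraries with Adipoq above 0 held 164, 29 and 113 counts of Cfd, while Fpr2-KO SuHx library 3 and Fpr2-KO control library 2 held 17 and 38 counts of Cfd with 0 CPM of Adipoq. Ucp1 was at 0 in all 8 libraries and Lep in 7. All 8 adipocyte markers together summed to 12.9 to 14.5 CPM in the SuHx libraries and 23.4 to 27.8 CPM in the control libraries, most of it Cidea. The part of fat tissue in the Cfd counts was not tested.

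C3ar1 (ENSMUSG00000040552, mm10 chromosome 6, 122847138 to 122856161, minus strand) encodes the receptor of C3a on macrophages and other myeloid cells. It stood at 8.16 and 8.16 CPM in the Fpr2-KO SuHx libraries and 10.7 and 6.63 CPM in the WT SuHx libraries, against 8.01 and 5.73 CPM in the Fpr2-KO control libraries and 4.404 and 5.98 CPM in the WT control libraries. Within each genotype the SuHx libraries lay above the control libraries, as they did for 30.9% of all genes in Fpr2-KO and 32.5% in WT. The log2 fold change was 0.25 ± 0.28, adjusted p = 0.621 in Fpr2-KO, 0.74 ± 0.28, adjusted p = 0.0952 in WT and 0.49 ± 0.20, adjusted p = 0.0911 averaged over genotypes (edgeR). None of these passed, and the average passed in 1 of 13 alternatives, the fit without WT SuHx library 3 (adjusted p = 0.0487).

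Serping1 (ENSMUSG00000023224, mm10 chromosome 2, 84765387 to 84775444, minus strand) encodes C1 inhibitor and had the highest mean level of the 9 genes per length. It stood at 159 and 135 CPM in the Fpr2-KO SuHx libraries and 127 and 127 CPM in the WT SuHx libraries, against 159.8 and 141 CPM in the Fpr2-KO control libraries and 125 and 159.7 CPM in the WT control libraries. Levels varied little over the 8 libraries. The log2 fold change for SuHx was -0.03 (95% interval -0.35 to 0.28) in Fpr2-KO and -0.17 (95% interval -0.48 to 0.15) in WT, so both intervals end below the C1q estimates. In SuHx mice both Fpr2-KO libraries lay above both WT libraries, as for 17.3% of all tested genes, by 0.22 ± 0.14, adjusted p = 1.0 in log2 units (edgeR).

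Per length, the mean level over the 8 libraries ran from 61.0 CPM per kilobase of exon for Serping1 through 36.4 for C1qb, 34.1 for C3 and 31.4 for C1qa to 16.7 for C1qc and 14.9 for C1s1. C4b followed at 5.93, C3ar1 at 1.68 and Cfd at 0.684 CPM per kilobase. The order of C1qb, C3 and C1qa is not settled, because C3 alone ran from 15.99 to 89.3 CPM per kilobase, passing Serping1 in Fpr2-KO control library 2, and the ranges of C1qc and C1s1 also overlapped. C1 inhibitor RNA stood above that of its target protease C1s1 in each library, at 53.7 or more against at most 22.0 CPM per kilobase.

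No gene of the 9 differed between genotypes past the threshold. In control mice 0 of 9 were called, where 2.6% of all genes were, and the groups overlapped for all 9, where 47.8% of all genes did not overlap. The log2 fold change of Fpr2-KO over WT in control mice was 0.12 (95% interval -0.39 to 0.63) for C1qa, 0.12 (95% interval -0.39 to 0.62) for C1qb and 0.12 (95% interval -0.42 to 0.67) for C1qc. In SuHx mice 0 of 9 and 0% of all genes were called. With C1s1, Serping1 and Cfd, 3 of the 9 lay higher in Fpr2-KO without overlap there, where 17.3% of all genes did. The log2 fold change in SuHx mice was 0.13 (95% interval -0.38 to 0.63) for C1qa, -0.02 (95% interval -0.52 to 0.49) for C1qb and -0.02 (95% interval -0.56 to 0.52) for C1qc. The interaction called 0 of 9 and 0% of all genes. At an unadjusted p under 0.05, edgeR counted 664 genes between genotypes in SuHx mice and 2417 in the interaction, each with 1 of the 9, Cfd (unadjusted p = 0.0287 and 0.0255). DESeq2 called 23 and 584 genes after adjustment, and none of the 9 was among those. The intervals do not show that the genotypes are alike.

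Of 51 other complement genes listed, 44 were in the table and 38 were tested. Averaged over genotypes, 8 rose and 5 fell under SuHx, against 15.5% and 14.1% of all genes. In Fpr2-KO, 1 rose and 0 fell, where 4.93% and 5.75% of all genes did, and in WT, 9 rose and 2 fell, where 10.9% and 9.63% did. The median log2 fold change of the 38 was 0.13 averaged over genotypes, against 0.01 over all tested genes. The list was chosen with earlier results of these data known. The 9 higher calls in WT became 4 with either 1 of the WT SuHx libraries left out, 6 without Fpr2-KO SuHx library 2 and 6 without Fpr2-KO SuHx library 3, and 6 without both Fpr2-KO SuHx library 2 and WT control library 1. The 2 lower calls in WT became 1 without WT SuHx library 3 or WT control library 1, 3 without WT control library 2 and 4 with either Fpr2-KO SuHx library left out. In Fpr2-KO the counts were 2 higher and 1 lower with either WT control library left out, 2 and 0 without Fpr2-KO control library 2, and 2 and 3 without both Fpr2-KO SuHx library 2 and WT control library 1. Itgam, Cd55 and Vtn were called in WT in all 13 alternatives, Cd93 and Cpn2 in 12, Masp1 and Itgb2 in 10, C5ar1 in 7, Thbd in 6 and Colec12 in 3. In the average, C1qbp was called in 4, Masp1 and C7 in 5, Cfhr2 in 6, Colec11 in 8, Itgb2 in 9 and Cd93 in 11 of the 13, and Colec12, Itgam, Cd55, Vtn and Cpn2 in all 13. Without both Fpr2-KO SuHx library 2 and WT control library 1, some calls were lost. In log2 units, the average change was then -0.48 for Masp1, 0.38 for Colec11, -0.89 for C7 and 0.41 for Itgb2. It was -1.31 for Cfhr2 and -0.23 for C1qbp. The lost calls in WT were Masp1 at -1.11, Colec12 at 0.33, C5ar1 at 0.82 and Itgb2 at 0.73. The 8 higher and 5 lower calls of the average became 13 and 4 without WT control library 2, 7 and 1 without WT SuHx library 3, and 8 and 1 without Fpr2-KO SuHx library 3. The lower calls were 2 without WT control library 1, Fpr2-KO SuHx library 2 or Fpr2-KO control library 2, and 3 without WT SuHx library 1 or Fpr2-KO control library 3.

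Of the 8 receptors tested, 4 rose and 0 fell under SuHx in WT, where 10.9% and 9.63% of all genes did. Itgam, the CD11b chain of complement receptor 3 on myeloid cells, stood at 8.94 and 6.49 CPM in the Fpr2-KO SuHx libraries and 7.95 and 9.55 CPM in the WT SuHx libraries, against 6.42 and 3.83 CPM in the Fpr2-KO control libraries and 0.724 and 1.91 CPM in the WT control libraries. All SuHx libraries lay above all control libraries, by as little as 6.49 against 6.42 CPM, and 15.6% of all tested genes did so. The log2 fold change was 2.73 ± 0.45, adjusted p = 0.00542 in WT and 0.59 ± 0.42, adjusted p = 0.413 in Fpr2-KO (edgeR). Itgb2, its partner chain CD18, had 0.91 ± 0.19, adjusted p = 0.01301 in WT. C5ar1, the C5a receptor, had 1.21 ± 0.34, adjusted p = 0.0372 and Cd93, once described as a C1q receptor, had 1.02 ± 0.21, adjusted p = 0.0126 in WT. In Fpr2-KO 0 of the 8 receptors were called, where 4.93% of all genes were called higher and 5.75% lower. Averaged over genotypes, where 15.5% of all genes were called higher, Itgam, Itgb2 and Cd93 rose, by 1.66, 0.54 and 0.63 in log2 units. The interaction of these genes did not pass, at -2.14 ± 0.60, adjusted p = 0.225 for Itgam.

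Regulators moved in both directions averaged over genotypes, with 3 of 15 tested higher and 3 lower, where 15.5% and 14.1% of all genes were. Cd55, decay-accelerating factor, which dissolves the enzymes that cut C3, stood at 14.8 and 13.9 CPM in the Fpr2-KO SuHx libraries and 14.5 and 13.5 CPM in the WT SuHx libraries, against 14.1 and 9.77 CPM in the Fpr2-KO control libraries and 4.204 and 5.43 CPM in the WT control libraries. Cd55 was lowest in the 2 WT control libraries, below the other 6. It rose under SuHx in WT (1.54 ± 0.21, adjusted p = 0.00228, edgeR) and was higher in Fpr2-KO than in WT control mice (1.31 ± 0.21, adjusted p = 0.0243). Cd55 was the 1 complement gene of either list called between genotypes. Of all tested genes, 2.6% were called between genotypes in control mice, and DESeq2 called 1944 genes there, 1010 of them higher. The count of other complement genes called higher there was 5 by DESeq2, 9 without WT control library 2, and 0 without WT SuHx library 1 or either Fpr2-KO control library. Its SuHx change in Fpr2-KO was 0.27 ± 0.20, adjusted p = 0.448, and its interaction was -1.27 ± 0.29, adjusted p = 0.157. Those comparisons share the WT control libraries. Without both Fpr2-KO SuHx library 2 and WT control library 1, Cd55 was not called between genotypes in control mice. Its log2 fold change there was then 1.15. The call between genotypes was lost without WT SuHx library 1 (adjusted p = 0.0508), WT control library 1 (0.0783), Fpr2-KO control library 2 (0.0895) or Fpr2-KO control library 3 (0.0954), and with the replicate block (0.101).

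Vtn, vitronectin, which blocks the terminal complex and is a matrix protein, stood at 38.2 and 35.03 CPM in the Fpr2-KO SuHx libraries and 34.3 and 30.4 CPM in the WT SuHx libraries, against 17.7 and 17.3 CPM in the Fpr2-KO control libraries and 15.01 and 16.5 CPM in the WT control libraries. The SuHx libraries lay at about the same level in both genotypes and above all control libraries, as for 15.6% of all tested genes. Vtn rose by 1.07 ± 0.12, adjusted p = 0.00351 in Fpr2-KO and by 1.04 ± 0.12, adjusted p = 0.00127 in WT in log2 units (edgeR). It was the 1 other complement gene called in Fpr2-KO. Thbd, thrombomodulin of endothelial cells, had 1.39 ± 0.34, adjusted p = 0.0304 in WT, with means of 58.7 CPM in SuHx and 22.4 CPM in control. In Fpr2-KO, where Thbd was not called, its means were 63.2 CPM in SuHx and 73.3 CPM in control. Cpn2, the large subunit of carboxypeptidase N that trims C3a and C5a, had 2.53 ± 0.51, adjusted p = 0.0106 in WT at levels of 0.34 to 2.76 CPM. Averaged over genotypes, Cfhr2, under 2.1 CPM in all libraries, fell by 2.11 and C1qbp, a mitochondrial protein named for binding C1q, fell by 0.25.

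Of the 10 tested initiation genes, Masp1, a protease of the lectin pathway, was lower in WT SuHx (-1.59 ± 0.36, adjusted p = 0.0173, edgeR), at 5.57 and 2.93 CPM in the WT SuHx libraries, against 16.5 and 9.24 CPM in the WT control libraries. In Fpr2-KO its change was 0.02 ± 0.35, adjusted p = 0.9796. Colec12, a scavenger receptor with a collectin domain, was higher in WT SuHx (0.52 ± 0.16, adjusted p = 0.0476) and averaged over genotypes (0.51 ± 0.11, adjusted p = 0.00934). Colec11, a lectin pathway recognition protein, rose averaged over genotypes (0.57 ± 0.16, adjusted p = 0.0271, edgeR). Of the 10 initiation genes, 1 was called higher and 1 lower in WT, where 10.9% and 9.63% of all genes were. In the average, 2 were called higher and 1 lower, where 15.5% and 14.1% of all genes were. C1ra, the partner of C1s1, did not pass and stood at 28.5 and 23.8 CPM in the Fpr2-KO SuHx libraries and 20.2 and 21.9 CPM in the WT SuHx libraries, against 35.7 and 19.6 CPM in the Fpr2-KO control libraries and 15.95 and 28.1 CPM in the WT control libraries. Of the 5 tested amplification and terminal genes, C7 fell averaged over genotypes (-1.01 ± 0.31, adjusted p = 0.0414, edgeR), where 14.1% of all genes were called lower. The other 4 did not pass in any comparison.

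**Figure D5:**
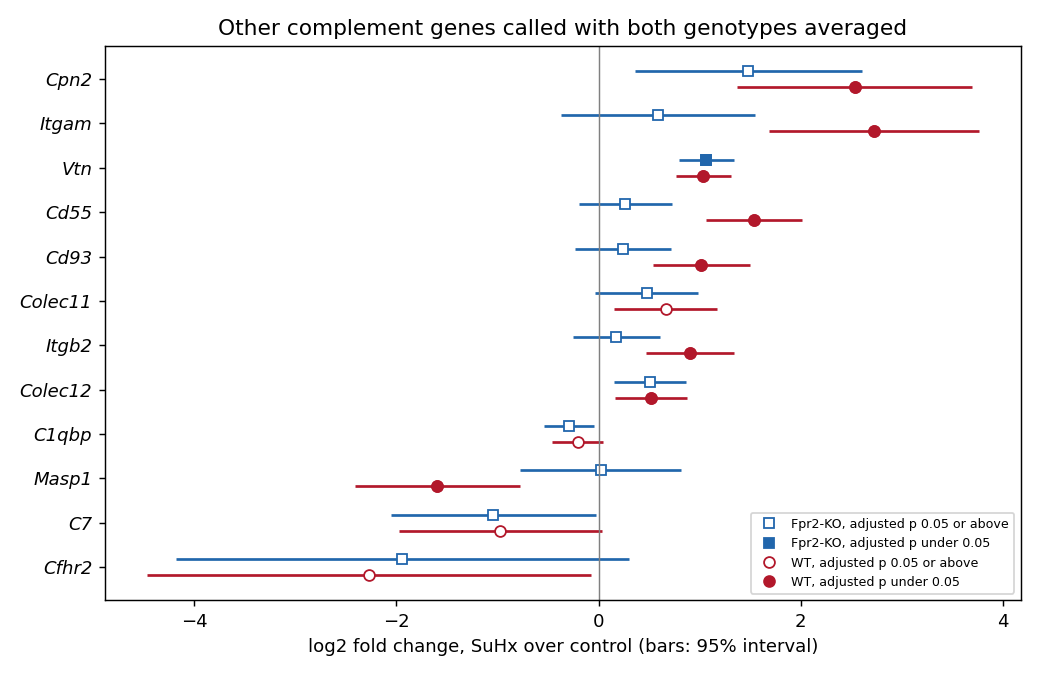
Log2 fold change of SuHx over control for 12 of the 13 other complement genes called with both genotypes averaged, with Fpr2-KO above WT for each gene, bars for the 95% interval and filled points for an adjusted p under 0.05 in edgeR. Vtn is filled in both genotypes, and Masp1 lies to the left of 0 in WT.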

How the data were processed

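RNA of 8 right ventricle libraries was selected for poly(A), made into dUTP-marked libraries and sequenced in pairs, per the labels' protocols. The submitters' processing notes name build mm10 and the tools HISAT2 2.2.1, StringTie 2.1.6, cutadapt 1.9, edgeR and DESeq2. No source used here gives their roles, how strand was counted or which annotation was used, so antisense overlap (Gm16567 with C1s1) and near copies are uncertain. Gm16567 had 0 counts in every library. The deposited table holds raw counts per gene, which the authors made and which were tested. Another 8 columns of per-sample values were not used, so levels between genes are CPM divided by the exon length of GENCODE M21 in kilobases, in place of the planned deposited values.

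Groups follow the titles, although in 3 Fpr2-KO samples another field reads Fpr3, Fpr4 or Fpr5. Column numbers match the titles in WT control alone, so the other 6 columns stand for their group without a sample. The p-values measure only the spread between these libraries, which may be technical. Floors cover counting error only, and the labels name no molecular identifiers.

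Counts were tested in edgeR 4.0.16 (R 4.3.3; filterByExpr by group, TMM, robust quasi-likelihood), with a mean per group and 4 residual degrees of freedom, leaving 19083 genes. The common biological coefficient of variation was 25.1%. CPM is scaled to the TMM-normalised library size. Tests were two-sided, adjusted by Benjamini and Hochberg over all tested genes, and called under 0.05. The standard error is the one implied by the F statistic. DESeq2 1.42.0, RLE scaling, no filter, a block on column number and leaving out each library were alternatives. The code was tested on simulated data. Named genes are the 9 genes and those other complement genes called in any of 6 comparisons, 1 of which is not reported here. The 9 genes, the lists and the tests were chosen with earlier results of these data known.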

Additional observations from a re-analysis of the deposited data

How the results depend on the processing

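Averaged over genotypes, C1qa, C1qb and C1qc were called higher under SuHx in 13 of 13 alternatives, with adjusted p no higher than 0.0353. Within WT, C1qa, C1qb and C1qc were called in 10, 7 and 7 of the 13, and within Fpr2-KO in 7, 3 and 4. Their directions under SuHx did not change in any of these settings. Fpr2-KO SuHx library 2 and WT control library 1 are in doubt, and leaving out both was chosen after seeing the data. Column numbers did not pair the samples: same-numbered libraries correlated at -0.0234 to 0.0408 in their deviations from the group means, and the replicate block called 1164 genes in Fpr2-KO. With 2 libraries a group, a library left alone was assumed to vary like the others. Each value is followed by those under the settings in which its direction or its side of the threshold changed, or in which a count moved by more than 1.5 times. The cause of these shifts was not tested.

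Counts for SuHx against control in WT were all genes called 3919 (2233 without both libraries, 1328 to 4289 with 1 library left out), the 9 genes called 3 (0 without both libraries, 0 to 4 with 1 library left out). Counts for SuHx against control in Fpr2-KO were all genes called 2038 (3241 by DESeq2, 1164 with the block, 937 without both libraries, 290 to 3051 with 1 library left out), the 9 genes called 1 (3 by DESeq2, 2 with the block, 0 without both libraries, 0 to 3 with 1 library left out). Counts for Fpr2-KO against WT in control mice were all genes called 497 (1944 by DESeq2, 9 with the block, 43 without both libraries, 0 to 2370 with 1 library left out). Counts for Fpr2-KO against WT in SuHx mice were all genes called 0 (23 by DESeq2, 1 with the block, 3 without both libraries, 0 to 5 with 1 library left out). Counts for the genotype by SuHx interaction were all genes called 0 (12 with no filter, 584 by DESeq2, 2 without both libraries, 0 to 756 with 1 library left out). Counts for SuHx against control averaged over genotypes were all genes called 5646 (3498 to 5844 with 1 library left out). Log2 changes for SuHx against control in WT were C4b -0.20 (0.52 with the block, -0.70 to 0.58 with 1 library left out), C3 -0.50 (0.22 with the block, -0.96 to 0.19 with 1 library left out), C1s1 0.13 (-0.17 without both libraries, -0.17 to 0.51 with 1 library left out), Serping1 -0.17 (-0.33 to 0.027 with 1 library left out). Log2 changes for SuHx against control in Fpr2-KO were Cfd 2.16 (-0.25 without both libraries, -0.25 to 9.46 with 1 library left out), C1s1 -0.057 (-0.39 to 0.39 with 1 library left out), Serping1 -0.031 (-0.16 to 0.098 with 1 library left out), C4b -1.05 (-1.72 to 0.28 with 1 library left out), C3 -1.24 (-1.89 to 0.0052 with 1 library left out). Log2 changes for Fpr2-KO against WT in control mice were C1qa 0.12 (-0.050 with the block, -0.068 without both libraries, -0.16 to 0.37 with 1 library left out), C1qb 0.12 (-0.038 with the block, -0.13 without both libraries, -0.14 to 0.43 with 1 library left out), C1qc 0.12 (-0.062 with the block, -0.13 without both libraries, -0.14 to 0.46 with 1 library left out), Serping1 0.082 (-0.076 without both libraries, -0.084 to 0.28 with 1 library left out), C4b 0.91 (-0.40 to 1.69 with 1 library left out), C3 0.79 (-0.43 to 1.49 with 1 library left out). Log2 changes for Fpr2-KO against WT in SuHx mice were C1qa 0.13 (-0.10 with the block, -0.069 to 0.35 with 1 library left out), C1s1 0.32 (-0.047 with the block), C4b 0.059 (-0.80 with the block, -0.47 without both libraries, -0.47 to 0.50 with 1 library left out), C3 0.059 (-0.75 with the block, -0.52 without both libraries, -0.52 to 0.50 with 1 library left out), C3ar1 -0.089 (-0.39 to 0.30 with 1 library left out), C1qb -0.015 (0.052 without both libraries, -0.17 to 0.15 with 1 library left out), C1qc -0.022 (-0.23 to 0.22 with 1 library left out). Log2 changes for the genotype by SuHx interaction were C1qa 0.0074 (-0.051 with the block, -0.24 to 0.30 with 1 library left out), C1qb -0.13 (0.18 without both libraries, -0.44 to 0.13 with 1 library left out), C1qc -0.15 (0.10 without both libraries, -0.47 to 0.12 with 1 library left out), C1s1 -0.18 (-0.56 to 0.26 with 1 library left out), Serping1 0.14 (-0.052 to 0.30 with 1 library left out), C4b -0.85 (-1.62 to 0.47 with 1 library left out), C3 -0.73 (-1.42 to 0.51 with 1 library left out). Log2 changes for SuHx against control averaged over genotypes were C1s1 0.035 (-0.25 without both libraries, -0.13 to 0.26 with 1 library left out), Serping1 -0.099 (-0.18 to 0.0011 with 1 library left out), C4b -0.62 (-0.96 to 0.043 with 1 library left out), Cfd -3.51 (-4.70 to 0.14 with 1 library left out). Where a group held 0 counts of Cfd in all its libraries, the size of the fitted change is not fixed.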

Other observations

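Over the 8 libraries and 10323 tested genes of at least 5 CPM, the genes whose log2 CPM followed the C1q mean most closely were Lgmn, a lysosomal protease (Pearson's r = 0.983), Rrm1, a subunit of ribonucleotide reductase (0.980), and Tmem164 (0.980). For C1s1 the closest was C1ra, its partner protease in the C1 complex (0.956), then Il33 (0.927) and Cds1 (0.926). C3 was followed most closely by Fbxl17 (0.966), BC067074 (0.954) and Cxcl14 (0.927), and C4b by BC067074 (0.941), Cxcl14 (0.919) and Lrrn4cl (0.915), so BC067074 and Cxcl14 appear for both. For C3ar1 they were Fancc (0.964), Plekho2 (0.952) and Sema6d (0.944), for Serping1 Scpep1 (0.944), Slc39a6 (0.889) and Ndufa12-ps (0.889), and for Cfd Gsn, the actin-severing protein gelsolin (0.907), Ltbp3 (0.904) and Gm2274 (0.895). These are descriptions over libraries that share groups.

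Interferon-stimulated genes rose beside C1q. Of 10 listed, 8 were called higher in Fpr2-KO SuHx and 10 in WT SuHx, with 0 lower. Of all genes, 4.93% and 10.9% were called higher there. The summed level of the 10 was 158 and 174 CPM in the Fpr2-KO SuHx libraries and 225 and 164 CPM in the WT SuHx libraries. It was 80.8 and 69.2 CPM in the Fpr2-KO control libraries and 63.5 and 70.0 CPM in the WT control libraries. The part of interferon in the C1q rise was not tested.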
